A study of Mus musculus with 24 samples.

Results

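*Cux2* and 4 genes whose liver level is set by the pattern of growth hormone release, *Cyp2c40*, *Cyp2c69*, *Cyp2a4* and *A1bg*, were followed in mouse liver as 5 of the 24411 genes counted. The 5 genes were picked by symbol after their levels had been seen. *Cyp2c40*, *Cyp2c69*, *Cyp2a4* and *A1bg* were taken because they were higher in LKO than in control livers after acetaminophen (APAP), and *Cux2* because it was lower in HKO than in AAV-Null livers. Those contrasts are therefore given as descriptions without a test. Tests are given for the mice that the choice did not use: the 4 genes before APAP in both knockouts where reads allowed, and *Cux2* in LKO and control livers. Before APAP, *A1bg* in the LKO comparison and *Cyp2a4* in the HKO comparison had too few reads to be tested.

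The study asked whether the ploidy of hepatocytes sets their susceptibility to APAP, using deletion of *E2f7* and *E2f8*, transcription factors needed for hepatocyte polyploidization, to obtain livers rich in diploid hepatocytes. All mice were males with loxP sites in both *E2f7* and *E2f8*, aged 2.5 months at the time of APAP and fasted for about 16 h. LKO mice (labelled KO) carried Alb-Cre, which deletes the genes in the liver lineage from development onward, together with the R26R-mTmG reporter on a mixed, predominantly FVB background, and control mice (labelled WT) were littermates without Cre. HKO mice (labelled CRE) received AAV8-TBG-Cre as adults, so that deletion was in grown, already polyploid hepatocytes, and AAV-Null mice (labelled NULL) received AAV8-TBG-Null. Single livers were sequenced at 0 h, without APAP, from 3 AAV-Null, 3 HKO, 4 control and 4 LKO mice. At 12, 24, 48, 72 and 96 h after 300 mg/kg APAP, 1 library per genotype was made from the pooled RNA of 3 control or 3 LKO livers. Each time point after APAP thus has 1 control and 1 LKO library, in which the differences between mice are averaged.

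In male mice growth hormone is released in pulses and in females almost continuously. Hepatocytes read this through the growth hormone receptor, the kinase JAK2 and the transcription factor STAT5, which switches on with each pulse in males and stays at a low steady level in females. Female-biased liver genes, among them *Cyp2a4*, *A1bg*, *Cyp2c40* and *Cyp2c69*, are held down by the male pattern. CUX2 is a homeobox factor of female liver that represses male-biased and activates female-biased genes. *Cyp2c40* and *Cyp2c69* encode cytochrome P450 enzymes of the family that oxidizes arachidonic acid and other lipids, CYP2A4 hydroxylates steroids such as testosterone, and A1BG is a secreted glycoprotein of the immunoglobulin superfamily.

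In GENCODE on GRCm38, all 5 are protein-coding. *Cyp2c40* (39767071 to 39812814) and *Cyp2c69* (39842814 to 39886799) lie side by side on the minus strand of chromosome 19, *Cyp2a4* (26307169 to 26315088) on the plus strand of chromosome 7, *A1bg* (60896859 to 60923012) on the minus strand of chromosome 15 and *Cux2* (121856366 to 122050102) on the minus strand of chromosome 5. The coding sequences of *Cyp2c40* and *Cyp2c69* are 92.4% identical, and those of *Cyp2a4* and *Cyp2a5*, its abundant neighbour, 98.4% identical. Reads that map to several places were not counted. Of all stretches of 100 bases in the exons, 44.1% in *Cyp2c40*, 36.3% in *Cyp2c69* and 11.2% in *Cyp2a4* also occur in another gene, so these levels are understated and reads may be split, while *A1bg* and *Cux2* share none.

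The promoters of the members that moved together are shown because the pairs are close to identical there as well. Each window runs from 250 bases before the start site to 50 after it and is taken from RefSeq (GRCm38.p6), whose start sites need not be those of GENCODE. In the *Cyp2c40* and *Cyp2c69* pair and in the *Cyp2a4* and *Cyp2a5* pair, capitals mark the bases that differ within the aligned stretch, which is 3 positions of 270 in the first pair (98.9% identity) and 5 of 299 in the second (98.3%). In *A1bg*, capitals mark a STAT5 motif. The windows are chr19:39812765-39813064 on the minus strand for *Cyp2c40*, chr19:39886720-39887019 on the minus strand for *Cyp2c69*, chr7:26306942-26307241 on the plus strand for *Cyp2a4*, chr7:26835089-26835388 on the plus strand for *Cyp2a5* and chr15:60921221-60921520 on the minus strand for *A1bg*.
Cyp2c40: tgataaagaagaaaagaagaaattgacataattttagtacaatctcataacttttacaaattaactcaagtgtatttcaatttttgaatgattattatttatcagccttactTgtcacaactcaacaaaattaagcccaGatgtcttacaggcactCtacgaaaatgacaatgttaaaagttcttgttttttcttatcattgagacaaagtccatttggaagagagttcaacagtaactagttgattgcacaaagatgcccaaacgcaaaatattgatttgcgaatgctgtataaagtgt
Cyp2c69: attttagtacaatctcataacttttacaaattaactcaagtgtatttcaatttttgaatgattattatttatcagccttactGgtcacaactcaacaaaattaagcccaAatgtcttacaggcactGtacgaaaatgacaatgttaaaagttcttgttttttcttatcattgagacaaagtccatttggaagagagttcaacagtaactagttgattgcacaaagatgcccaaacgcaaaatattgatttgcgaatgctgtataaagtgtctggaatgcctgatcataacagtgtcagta
Cyp2a4: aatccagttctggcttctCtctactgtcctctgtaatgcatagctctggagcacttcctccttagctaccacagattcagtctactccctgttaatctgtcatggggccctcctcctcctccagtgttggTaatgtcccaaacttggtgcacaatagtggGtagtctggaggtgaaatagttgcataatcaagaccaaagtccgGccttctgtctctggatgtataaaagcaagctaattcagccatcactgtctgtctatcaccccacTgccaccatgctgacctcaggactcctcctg
Cyp2a5: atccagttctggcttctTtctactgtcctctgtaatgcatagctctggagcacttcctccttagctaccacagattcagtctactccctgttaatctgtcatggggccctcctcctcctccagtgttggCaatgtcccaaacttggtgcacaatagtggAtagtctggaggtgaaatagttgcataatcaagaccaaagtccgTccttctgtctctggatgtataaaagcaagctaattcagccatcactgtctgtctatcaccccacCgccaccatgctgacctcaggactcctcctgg
A1bg: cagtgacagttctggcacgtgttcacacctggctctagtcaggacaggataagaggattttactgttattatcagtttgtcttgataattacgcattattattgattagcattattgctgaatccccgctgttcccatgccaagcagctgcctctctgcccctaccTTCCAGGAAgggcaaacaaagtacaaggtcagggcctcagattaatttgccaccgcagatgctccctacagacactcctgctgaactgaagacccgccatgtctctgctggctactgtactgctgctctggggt

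The STAT5 motif TTCNNNGAA reads the same on both strands. Among the members it was found in the *A1bg* window only, from position -84 relative to the start site, and 8.30% of 32851 promoters of this length hold it. The E2F motifs TTTCCCGC and TTTGGCGC, searched on both strands, were in none of the members' windows and in 1.56% of all promoters. A match or its absence describes these letters in this window only.

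Reads on genes ranged from 12665686 to 19499897 per library (median 16500386). Levels are CPM, read counts scaled to a common library size, after TMM scaling of all 24 libraries, so 3 reads, taken as the lowest detectable level, equal 0.144 to 0.253 CPM, a limit of counting error only. A level compares libraries for 1 gene and was not corrected for gene length. Liver identity was clear from *Alb* (26352 to 97755 CPM). *Ass1*, a periportal marker, had at most 0.264 CPM in any library, while *Arg1* of the same list had 1265 to 2868 CPM. Why so few reads were counted on *Ass1* was not tested, and its value is not read as absence from these livers. *Xist* stayed at or under 0.506 CPM and the Y-linked *Ddx3y* at or above 43.8 CPM, as in males. *E2f8*, a target of the knockout, was not lower in knockout livers. It had 14.8 to 26.3 CPM in AAV-Null and 30.6 to 83.4 CPM in HKO mice (adjusted p = 0.0773 by edgeR's quasi-likelihood test), and 11.8 to 18.9 CPM in control and 18.0 to 34.1 CPM in LKO mice at 0 h. *E2f7* had at most 1.33 CPM at 0 h. The count covers the whole gene and not only the deleted exons, so it does not check the genotypes, and directions follow the labels. The study checked deletion and ploidy by other measures, which are not analysed here.

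**Figure D1:**
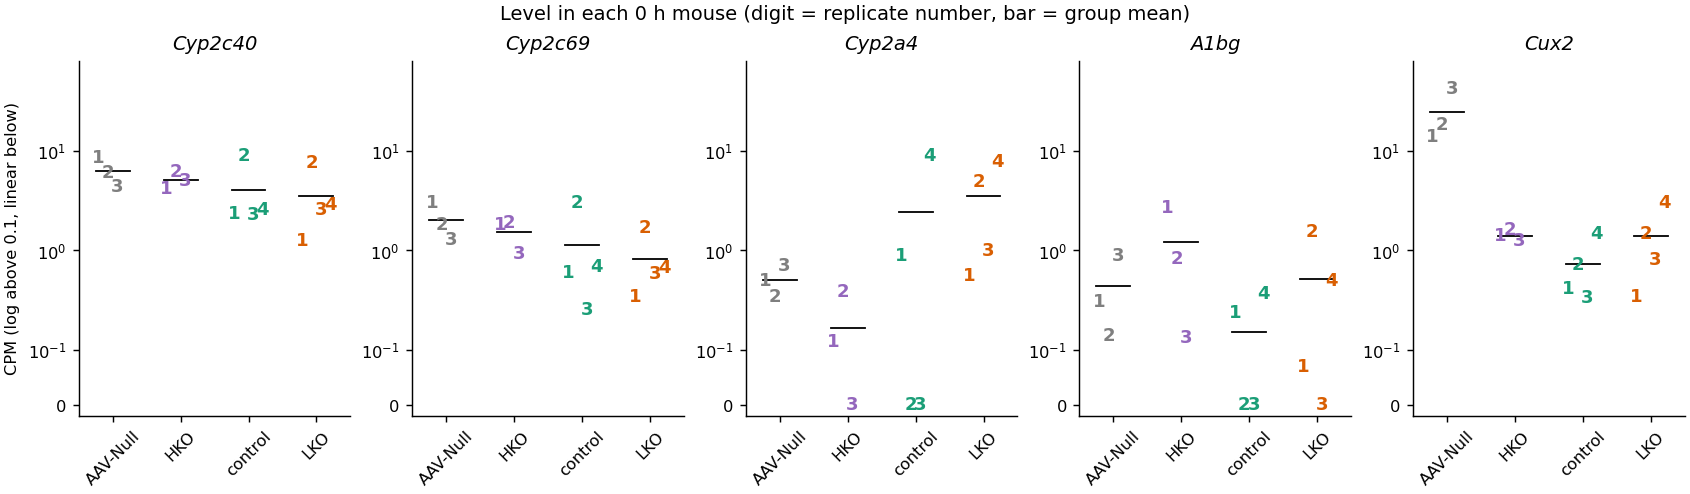
Level of each member in the 14 mice at 0 h, in CPM on an axis that is logarithmic above 0.1 and linear below. Digits are replicate numbers, placed at the mouse's value, and bars are group means. *Cux2* is above 13 CPM in the 3 AAV-Null mice only, and *Cyp2a4* runs from 0 to 8.80 CPM within the control mice.

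Before APAP, the members varied several-fold between the control mice and between the LKO mice. *Cyp2c40* had 2.30, 8.95, 2.27 and 2.52 CPM in control replicates 1 to 4 and 1.24, 7.62, 2.54 and 2.86 CPM in LKO replicates 1 to 4. Control replicate 2 and LKO replicate 2 stood above the other 6 mice, whose values overlapped. *Cyp2c69* followed the same mice, with 0.590, 3.01, 0.253 and 0.677 CPM in control and 0.344, 1.69, 0.576 and 0.660 CPM in LKO mice. In the other cohort, *Cyp2c40* had 8.41, 6.07 and 4.36 CPM in AAV-Null and 4.18, 6.17 and 5.01 CPM in HKO mice, and *Cyp2c69* 3.01, 1.79 and 1.26 CPM against 1.82, 1.91 and 0.923 CPM. Both groups overlapped for both genes.

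*Cyp2a4* was the most variable member. In control mice it had 0.885, 0, 0 and 8.80 CPM, the highest value standing for 143 reads and each 0 allowing up to 3 reads. In LKO mice it had 0.551, 4.90, 0.979 and 7.75 CPM, within the range of the controls. It was close to the detection limit in all 6 mice of the other cohort, with 0.491, 0.345 and 0.695 CPM in AAV-Null and 0.121, 0.382 and 0 CPM in HKO mice. *A1bg* was low throughout, at 0.236, 0, 0 and 0.369 CPM in control, 0.0689, 1.52, 0 and 0.495 CPM in LKO, 0.307, 0.138 and 0.884 CPM in AAV-Null and 2.66, 0.827 and 0.132 CPM in HKO mice. Its highest value at 0 h stood for 44 reads in HKO replicate 1, and the lowest of that group for 2 reads, under the limit of 3.

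*Cux2* was the only member that set a group apart. It had 13.8, 18.1 and 41.5 CPM in the AAV-Null mice, against 1.39, 1.59 and 1.25 CPM in HKO mice, a log2 fold change of -4.11 that is a description here, since it was the reason for the choice. The HKO values lay among those of the mice that received no virus, which were 0.413, 0.716, 0.337 and 1.48 CPM in control and 0.344, 1.47, 0.807 and 3.02 CPM in LKO. The AAV-Null mice were thus above the other 11 mice. The AAV-Null mice differ from uninjected controls in virus and cohort at once, and these cannot be told apart. HKO mice belong to the same cohort and also received AAV8, with Cre in place of Null. The cause of the AAV-Null level was not tested.

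The spread between mice was wide by comparison with other genes. After the mean of each of the 4 groups was removed, the pooled SD of log2 CPM over the 14 mice was 1.91 for *Cyp2a4*, 1.39 for *A1bg*, 0.90 for *Cyp2c69*, 0.853 for *Cux2* and 0.797 for *Cyp2c40*. The median over the 12945 genes kept was 0.269, and the members stood at the 99.9th, 99.5th, 97.2nd, 96.6th and 95.5th percentile. Among genes within 0.5 of their mean log2 CPM they stood at the 99.8th, 98.4th, 94.5th, 96.3rd and 96.8th percentile. Low counts raise an SD, and with a prior count of 0.5 in place of 2 the SD of *Cyp2a4* became 2.54 and that of *A1bg* 2.03.

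Other growth hormone dependent genes had a wide spread as well. Of the 36 female-biased genes listed, 21 were kept, the members among them, and 17 of these lay above the 90th percentile of the SD. So did 14 of 24 male-biased genes, 5 of 19 genes of growth hormone signalling and 5 of 18 clock genes, but none of the 8 pericentral or the 6 periportal genes kept. Control replicate 4 was above its group mean in 14 of the 16 female-biased genes that are not members and in none of the 24 male-biased genes, with median deviations of 1.58 and -1.01 on the log2 scale. LKO replicate 2 was above its group mean in 15 and in none (0.97 and -0.91). The opposite held for LKO replicate 1, which was above the mean in 1 female-biased and 21 male-biased genes (-1.44 and 0.52). It also held for control replicate 2, with 2 and 22 (-0.97 and 0.52), and control replicate 3, with 4 and 21 (-0.53 and 0.70). *Cyp2b9*, a female-biased P450 gene, had 109.6 CPM in control replicate 4 and 142.6 CPM in LKO replicate 2 but no reads in control replicates 2 and 3 and LKO replicate 1. *Selenbp2*, a male-biased selenium binding protein, was the reverse, at 48.4 and 47.1 CPM against 3247, 2088 and 2028 CPM.

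**Figure D2:**
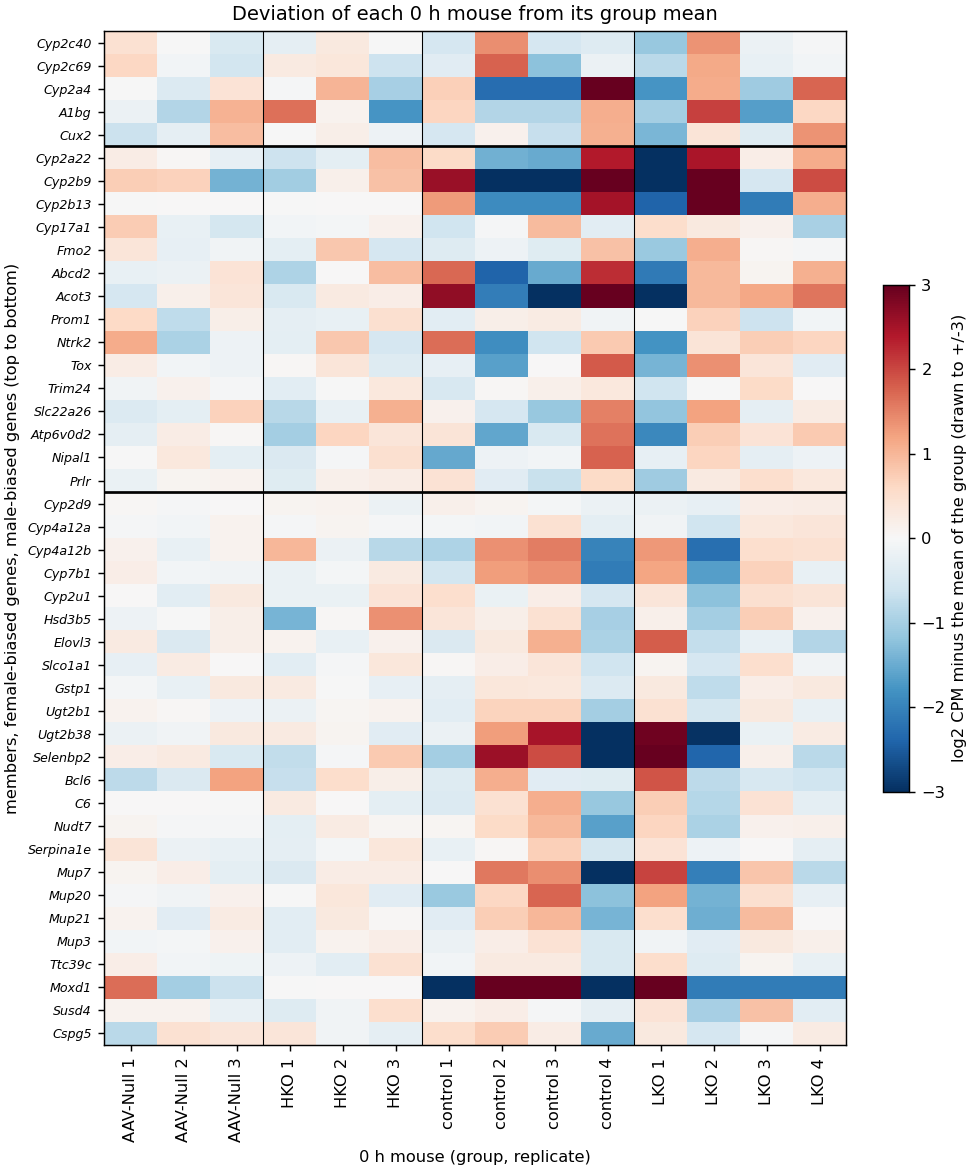
Deviation of each 0 h mouse from the mean of its own group, in log2 CPM (colour, drawn to 3 in each direction), for the 5 members, 15 of the 16 other female-biased and 24 male-biased genes. Columns are the 14 mice by group and replicate. Control 4 and LKO 2 are high in the female-biased and low in the male-biased block, and LKO 1, control 2 and control 3 are the reverse. The 6 mice of the virus cohort deviate less.

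The members did not all follow that order of mice. *Cyp2a4* was high in control replicate 4 and LKO replicates 2 and 4, but the highest control for *Cyp2c40* and *Cyp2c69* was replicate 2, a mouse with low female-biased genes and no *Cyp2a4* reads. Over the 14 mice with group means removed, 10 pairs of members were compared, with p-values from 100000 permutations of mice within groups, adjusted over the 10 pairs. *Cyp2c40* and *Cyp2c69* varied together (Pearson r = 0.893, adjusted p = 0.0158; Spearman rho = 0.842, adjusted p = 0.0216), and without the 2 mice farthest from the median, control replicate 2 and LKO replicate 2, r was 0.724. *Cyp2a4* varied with *A1bg* (r = 0.684, permutation adjusted p = 0.0469; rho = 0.714, adjusted p = 0.0686) and with *Cux2* (r = 0.701, adjusted p = 0.0469; rho = 0.691, adjusted p = 0.129), and r was 0.710 and 0.755 without control replicates 4 and 2. The rank correlations of these pairs missed the threshold, as did the other 7 pairs by both measures, with r from -0.0061 to 0.554.

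Over the same mice, *Cyp2a4* correlated negatively with all 24 male-biased genes (median r = -0.77, where the median over all genes was 0.0097) and positively with 17 of 20 female-biased genes, the other members included (median 0.68). Its strongest partners there were *Ugt2b1* (r = -0.94) and *Cyp2b9* (0.855). *A1bg* had a negative r with all 24 male-biased genes as well (median -0.61) and *Cux2* with 23 (median -0.52). For *Cyp2c40* and *Cyp2c69* the male-biased medians were -0.20 and -0.25, with a negative r for 23 of 24 genes in both. Across all genes, those most like *Cyp2a4* were *Mapk15* (r = 0.984) and *Idh2* (0.961), and the least like was *Scfd2* (-0.97). *Syf2* (0.921) and *Ranbp3* (0.919) were most like *A1bg* and *Mpp5* (-0.92) least. *Ephx1* (0.909) and *Rps10* (0.90) were most like *Cux2*, *Ttc26* (-0.92) least. For *Cyp2c40* these were *Cyp2c69* (0.893), *Cwc25* (0.891) and *Oas1g* (-0.93), and for *Cyp2c69* they were *Cyp2c40*, *Clmp* (0.862) and *Iqgap1* (-0.87). These values describe 14 mice of 2 cohorts, and by rank correlation only 0 to 3 of each member's 5 nearest genes were the same.

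The members were compared between genotypes at 0 h, before APAP. In LKO livers deletion and ploidy differ from controls together and cannot be told apart. In LKO against control mice, none of the 12426 genes tested was called (adjusted p under 0.05 and at least 1.5-fold, edgeR's quasi-likelihood test), a background of 0%, and 352 had an unadjusted p under 0.05. DESeq2 called 3 genes and no member. The log2 fold changes were -0.14 ± 0.59 (SE) for *Cyp2c40*, -0.43 ± 0.71 for *Cyp2c69*, 0.53 ± 1.17 for *Cyp2a4* and 0.93 ± 0.64 for *Cux2*, each with an adjusted p of 0.999, and *A1bg* had too few reads to be tested. The *Cux2* value was 0.26 without LKO replicate 4 and 1.52 without control replicate 4. That of *Cyp2a4* was -0.16 and 3.39 without the same mice. Without control replicate 2, *Cyp2c40* and *Cyp2c69* turned to 0.60 and 0.67. All groups overlapped. A 2-fold change is smaller than 2 standard errors for each of these genes, so such a change was not detectable here. Of the listed male-biased genes, 22 of 23 tested had a negative fold change (median -0.59, against 0.00 over all genes), and 13 of 18 female-biased genes a positive one (median 0.26), but no gene of either list was called. Scaling by library size moved the median of all genes by 0.128, less than these medians.

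In HKO against AAV-Null mice, 52 genes (0.419%) were called higher and 67 (0.54%) lower of 12397 tested, and 76 and 58 with scaling by library size. The count rested on single mice, with 54 calls without AAV-Null replicate 1, 56 without AAV-Null replicate 2 and 297 without HKO replicate 1. *Cyp2c40* (-0.29 ± 0.28 SE, adjusted p = 0.744 by edgeR), *Cyp2c69* (-0.38 ± 0.43, adjusted p = 0.795) and *A1bg* (1.43 ± 0.92, adjusted p = 0.593) were not called. The *A1bg* value rested on single mice, being 0.11 without HKO replicate 1 and 2.39 without AAV-Null replicate 3, and *Cyp2a4* had too few reads to be tested. *Cux2* thus differed between HKO and AAV-Null livers, with the HKO values among those of uninjected mice, without a called change in the other members tested. Of the 15 female-biased genes tested, *Trim24*, a nuclear receptor coregulator (-0.90, adjusted p = 0.0321 by edgeR), and *Acot3*, a peroxisomal thioesterase (-1.60, adjusted p = 0.0182), were called lower with *Cux2*, and none higher. *Trim24* had 47.6 to 56.6 CPM in AAV-Null, 22.0 to 33.7 CPM in HKO and 17.3 to 30.3 CPM in uninjected control mice. *Acot3* had 57.3 to 105 CPM, 20.0 to 32.6 CPM and 0 to 44.9 CPM in the same groups. For both genes the HKO and uninjected control values overlapped. Of 24 male-biased genes, the fatty acid elongase *Elovl3* rose (1.09, adjusted p = 0.0238), while *Mup20* and *Mup21*, urinary pheromone carriers, and *Ugt2b38*, a glucuronosyltransferase, fell (-1.33, -1.19 and -1.60). The other genes of both lists were not called. *Cyp2a5*, the neighbour of *Cyp2a4*, fell from 492, 434 and 645 CPM to 140.3, 131 and 139 CPM (-1.93 ± 0.15, adjusted p = 0.000676), and it was the only one of 13 tested *Cyp2c* and *Cyp2a* neighbours to be called.

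None of 19 growth hormone signalling genes was called in HKO livers (15 had a positive fold change, median 0.21), but 8 of 18 clock genes were. *Arntl*, the activator of the core clock, rose (2.24, adjusted p = 0.00346), and genes that fell included *Usp2*, *Dbp*, *Per3*, *Per2*, *Tef* and *Nr1d2*, *Usp2* by 3.53 and *Nr1d2* by 0.72 on the log2 scale. The list's median was -0.81, against 0.01 over all genes. *Sftpc*, a lung surfactant gene, was the only called marker of another tissue or cell type. It had 0.798, 0.966 and 1.14 CPM in AAV-Null mice, 0.0659 CPM in HKO replicate 3 and no reads in the other 10 mice at 0 h. The 4 lung markers summed to 4.48 to 9.73 CPM in AAV-Null, 2.24 to 2.97 CPM in HKO, 3.03 to 5.08 CPM in control and 1.69 to 7.43 CPM in LKO mice, most of it from *Sftpa1*, while *Sftpb* had no reads in the AAV-Null and HKO mice and *Scgb1a1* at most 0.138 CPM. The part of the clock genes or of lung RNA in the *Cux2* values was not tested.

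After APAP, the P450 members and *A1bg* were higher in LKO than in control pools at every time point, which is what they were chosen for. *Cyp2c40* had 0.325, 0.0606, 1.37, 0.589 and 2.55 CPM in the control pools from 12 to 96 h and 12.5, 8.80, 40.7, 15.6 and 38.8 CPM in the LKO pools. The ratio of LKO to control was lowest at 96 h, at 15.2 (95% interval 10.9 to 21.9, exact binomial, counting error only). It was highest at 24 h, at 145 (25.7 to 5776). There the control pool held 1 read, under the limit of 3, so the size of that ratio is not set. *Cyp2c69* had 0.325, 0, 0.608, 0.131 and 1.42 CPM in control and 10.7, 9.17, 15.1, 9.23 and 25.6 CPM in LKO pools. At 24 h, with 0 reads against 177, the exact binomial lower limit of the ratio was 40.6. Taking the control library at 3 reads gave a ratio of 50.5. For neither gene did the pools of the genotypes overlap.

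*Cyp2a4* had 2.86, 3.39, 0.101, 0.458 and 3.19 CPM in control and 10.6, 48.8, 6.33, 11.9 and 19.4 CPM in LKO pools. The ratios ran from 3.71 at 12 h (2.66 to 5.29) to 62.5 at 48 h (16.9 to 523). The latter rests on 2 control reads, under the limit of 3, so its size is not set. *A1bg* had 0.260, 0.121, 0.557, 0.196 and 2.41 CPM in control and 2.17, 1.61, 6.28, 18.8 and 12.4 CPM in LKO pools. The *A1bg* level of the control pool at 96 h exceeded those of the LKO pools at 12 and 24 h. Members differed in their timing. In LKO pools *Cyp2a4* was highest at 24 h, *Cyp2c40* at 48 h with nearly the same level at 96 h, *A1bg* at 72 h and *Cyp2c69* at 96 h, each maximum being 1 library of 3 mice.

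**Figure D3:**
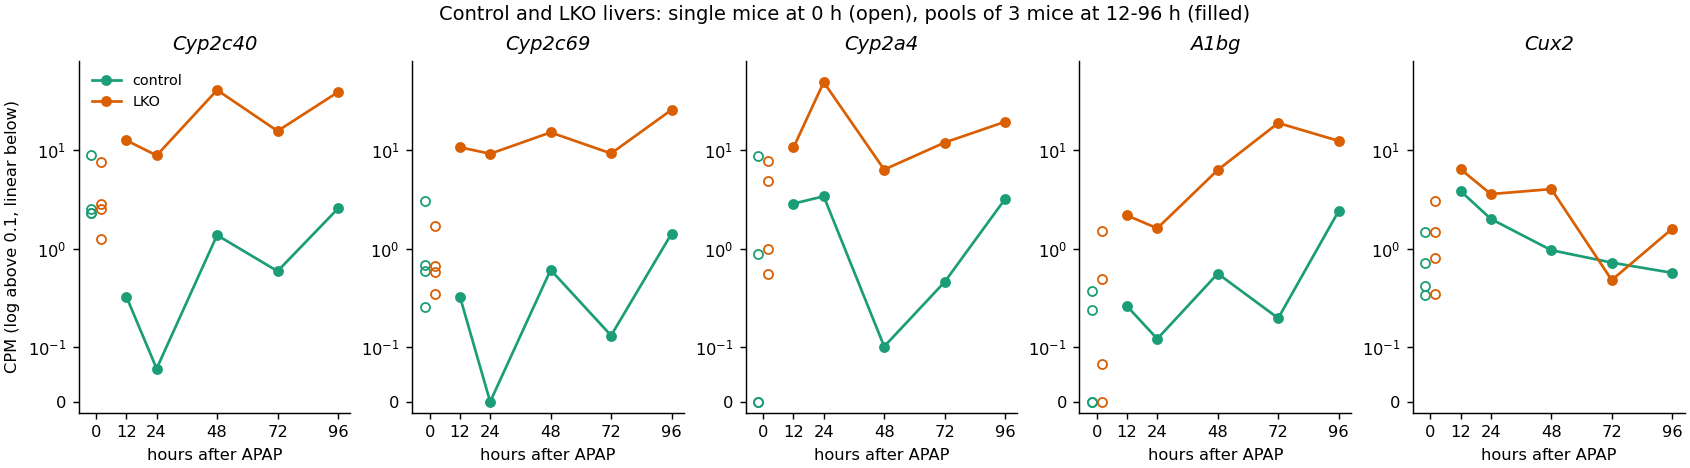
Members in control and LKO livers, in CPM on an axis that is logarithmic above 0.1 and linear below, against hours after APAP. Open circles at 0 h are single mice (4 per genotype), filled circles are pools of 3 mice. In LKO pools *Cyp2c40* stays at 8.80 CPM or above, in control pools at 2.55 CPM or below, and the *Cux2* lines cross at 72 h.

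Each pool averages 3 mice, and the spread between mice after APAP was not measured. The LKO pools of *Cyp2c40*, *Cyp2c69* and *A1bg* were above all 4 LKO mice at 0 h (1.24 to 7.62, 0.344 to 1.69 and 0 to 1.52 CPM). For *Cyp2a4* the LKO pool at 48 h, at 6.33 CPM, lay within the range of the 0 h mice. Control pools of *Cyp2c40* were under the control mean of 4.01 CPM at 0 h at each time. On the log2 scale with a pseudocount of 0.5, they differed from the 0 h mice by -1.64 on average, and LKO pools by 2.53. The control mean rests on replicate 2, since the control pool at 96 h (2.55 CPM) was above the other 3 mice (2.27 to 2.52 CPM). The fitted difference of the control pools was -2.02 and became -1.27 without replicate 2, a description, as the pools were used in the choice. On that scale, 3 of 5 control pools of *Cyp2a4* and 4 of 5 of *A1bg* were above the 0 h mean.

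*Cux2* was not chosen on these pools and was tested. It had 3.83, 2.00, 0.962, 0.720 and 0.567 CPM in control and 6.39, 3.57, 4.01, 0.478 and 1.59 CPM in LKO pools, both genotypes being highest at 12 h. The LKO pool was higher at 4 of 5 time points. The ratios were 1.67 (95% interval 1.20 to 2.33, exact binomial), 1.79 (1.16 to 2.80), 4.17 (2.49 to 7.33), 0.665 (0.253 to 1.72) and 2.81 (1.25 to 7.10). These intervals hold counting error only and not the differences between mice. With the time point as a block, the log2 fold change was 0.94 ± 0.38 (SE, adjusted p = 0.236 by edgeR's quasi-likelihood test), which was not called. Against the 0 h mice of the same genotype it was 1.14 ± 0.66 in control pools (adjusted p = 0.291 by edgeR) and 1.18 ± 0.72 in LKO pools (adjusted p = 0.503), and the levels overlapped. In that comparison the time points stood in for replicates, so its errors hold the time course. At its highest after APAP, *Cux2* stayed below the AAV-Null mice.

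Over 12 to 96 h, 32 genes (0.25%) were called higher and 42 (0.329%) lower in LKO of 12782 tested, and 30 and 12 with scaling by library size. No gene was called without the time point as a block, and leaving out 12, 24, 48, 72 or 96 h gave 9, 18, 10, 12 or 177 calls. The 4 members chosen on this contrast are among the 32, and nothing is read from their count. Of the 16 female-biased genes tested that are not members, 2 were called, both higher in LKO. *Cyp2b9* rose (2.75 ± 0.47 SE, adjusted p = 0.0417 by edgeR) from 1.92 to 27.3 CPM in the control pools to 7.86 to 196 CPM in the LKO pools, and its level was higher in LKO at each time point. Without the members, 14 of the 16 had a positive fold change (median 0.94, against -0.01 over all genes). One of the exceptions was the estrogen sulfotransferase *Sult1e1* (-2.46 ± 0.81, adjusted p = 0.168). The 13 *Cyp2c* and *Cyp2a* neighbours tested all had positive fold changes (median 1.03), with *Cyp2c38* (2.32, adjusted p = 0.0805) and *Cyp2c39* (1.96, adjusted p = 0.0743) largest, but none was called. Of 23 male-biased genes, *Mup7* (-2.37, adjusted p = 0.0237) and *Mup20* (-1.13, adjusted p = 0.0417) fell, and the median was -0.14. No gene of growth hormone signalling (0.10, 13 of 19 positive) or of the clock (-0.01) was called.

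**Figure D4:**
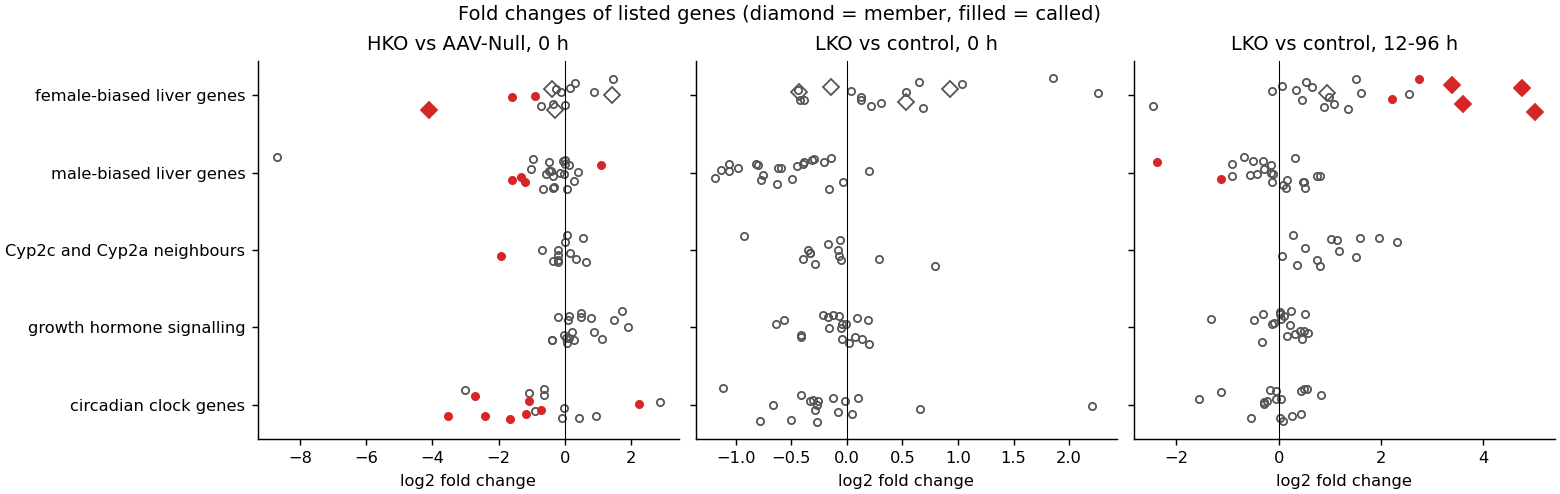
Log2 fold change of each tested gene of 5 lists in 3 comparisons, with a separate axis for each. Diamonds are members, other genes are circles, filled marks were called at an adjusted p under 0.05 and 1.5-fold, and vertical position within a list is arbitrary. In the pools the 4 chosen members lie farthest to the right of the female-biased list, and the neighbouring P450 genes are all right of 0. The male-biased point at -8.69 in HKO is *Moxd1*, which had no reads in the 3 HKO mice, so that its value depends on the prior count.

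No gene of the zonal and cell type lists was called in these pools. Pericentral genes had a positive fold change in 6 of 8 (median 0.66) and periportal genes in 5 of 6 (0.18). Cholangiocyte markers were negative in 5 of 5 (median -1.01), with summed levels of 21.8 to 216 CPM in control and 21.8 to 87.1 CPM in LKO pools. The medians were -0.23 for hepatocyte, 0.15 for Kupffer cell and leukocyte, -0.12 for stellate and 0.17 for endothelial markers, and 0.23 for the 4 sex chromosome genes tested. In whole liver, fewer cells of a type and less RNA per cell cannot be told apart, and the part of these differences in the members' levels was not tested.

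Near-identical neighbours were far more abundant than the members, and their fitted differences between LKO and control pools were also positive but smaller. *Cyp2c67* had 132, 137, 70.8, 168 and 330 CPM in control and 158, 238, 225, 221 and 255 CPM in LKO pools (log2 fold change 0.52 ± 0.25 SE, adjusted p = 0.310 by edgeR), and *Cyp2c68* was not called either (0.81, adjusted p = 0.175). *Cyp2c68* had 146, 174, 82.9, 193 and 258 CPM in control and 145, 307, 378, 338 and 346 CPM in LKO pools. In the control pool at 24 h, *Cyp2c40* and *Cyp2c69* had 1 read and 0 reads while *Cyp2c67* and *Cyp2c68* had 137 and 174 CPM. The 2 control mice with no *Cyp2a4* reads at 0 h had 455 and 357 CPM of *Cyp2a5*. When the reads of *Cyp2c40*, *Cyp2c67*, *Cyp2c68* and *Cyp2c69* were summed, the log2 LKO to control difference over 12 to 96 h was 0.77. For *Cyp2a4* with *Cyp2a5* it was 0.83. Both sums hold reads of members chosen on this contrast, so these values are descriptions. Most reads in both came from the neighbours.

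**Figure D5:**
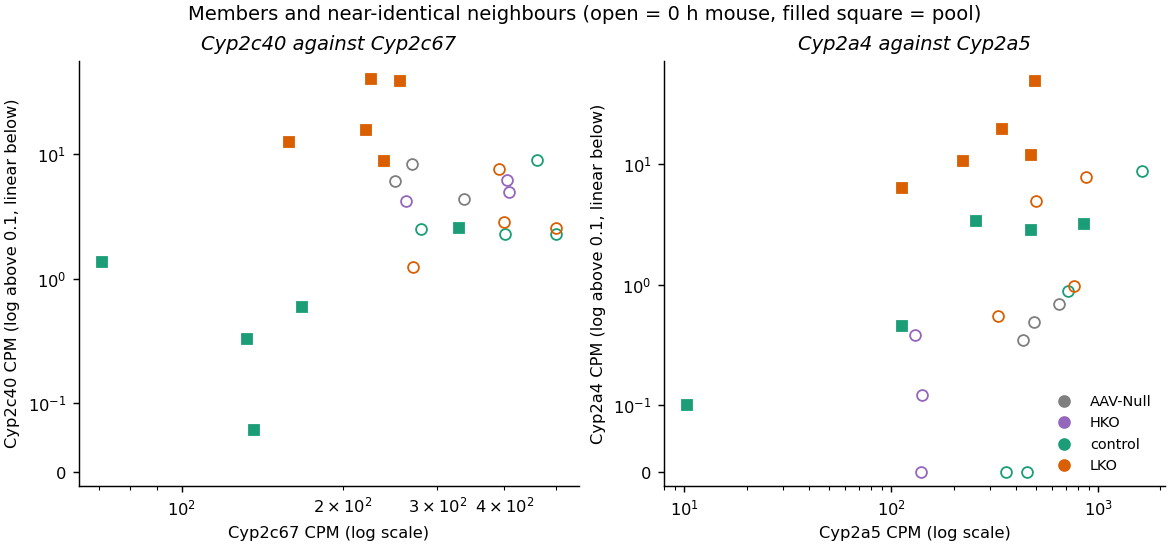
Level of *Cyp2c40* against *Cyp2c67* and of *Cyp2a4* against *Cyp2a5* in the 24 libraries, in CPM. The horizontal axes are logarithmic, the vertical ones logarithmic above 0.1 and linear below. Open circles are 0 h mice and filled squares are pools, coloured by group. The 4 highest *Cyp2c40* values are LKO pools at 158 to 255 CPM of *Cyp2c67*, and 3 mice with 139 to 455 CPM of *Cyp2a5* have no *Cyp2a4* reads.

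The course after APAP within a genotype was compared with its 0 h mice. The time points, each 1 pool of 3 mice, stood in for replicates. The errors and p-values thus hold the time course and do not measure the spread between mice after APAP. In control livers 298 genes (2.36%) were called higher and 211 (1.67%) lower of 12603 tested. *Stat5b*, which carries the growth hormone signal, had 79.1, 81.4, 75.2 and 84.2 CPM in the control mice at 0 h and 52.3, 31.4, 39.6, 41.8 and 50.6 CPM in the control pools. It fell with no overlap (log2 fold change -0.87 ± 0.18 SE, adjusted p = 0.0362 by edgeR). The fall was not particular to control livers, although edgeR called no gene in LKO livers. There *Stat5b* had 80.05 to 109.6 CPM at 0 h and 53.2, 42.99, 66.8, 63.4 and 88.9 CPM in the pools. Only the LKO pool at 96 h overlapped with the LKO mice at 0 h. In control livers *Sult1e1* rose from at most 0.253 CPM to 0.354 to 21.7 CPM (adjusted p = 0.0347). No other gene of the female-biased, male-biased or growth hormone lists was called, although 22 of 23 male-biased genes had a negative fold change (median -1.53, against 0.06 over all genes). Among the other lists, the clock gene *Nr1d1*, the pericentral genes *Glul* and *Slc1a2* and the periportal *Pck1* fell, and the macrophage marker *Cd68* rose. The calls rested on single libraries. Leaving out control replicate 1, 2, 3 or 4 left 2, 0, 5 or 0 calls, and leaving out the pool at 12, 24, 48, 72 or 96 h gave 1378, 9, 7, 91 or 2001. In LKO livers none of 12812 genes was called higher (0%) or lower (0%), with 1763 at an unadjusted p under 0.05, while DESeq2 called 385, and 236 were called without the pool at 12 h and 21 without that at 96 h. There 21 of 23 male-biased genes had a negative fold change (median -1.15) and 14 of 17 female-biased genes that are not members a positive one (median 0.49). The comparisons within a genotype and between genotypes share these pools, so they are not independent of each other.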

How the data were processed

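Whole-liver RNA of 24 mouse libraries was sequenced. The authors deposited raw counts of reads per gene, made by STAR on mm10 after trimming by Trimmomatic, in which reads that map to several places are left out. The annotation is not given in the sources used here. The deposited counts in column 2, which disregard strand, were used. Rows naming no gene were left out.

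Tests used edgeR 4.0.16 under R 4.3.3 with filterByExpr, TMM scaling and the quasi-likelihood F-test, 2-sided, with Benjamini-Hochberg adjustment over all genes tested. Genes were called at an adjusted p under 0.05 and at least 1.5-fold. Time point was a block between pools. Log2 CPM used a prior count of 2. Alternatives were DESeq2 1.42.0, other scaling, no filter, no fold limit, a stranded column, other blocks, summed paralogs and leaving out libraries. The test was checked on simulated counts. Promoters were aligned with Biopython 1.88.

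The members and gene lists were chosen with earlier results of these data known. Named genes are the members, their closest paralogs, *E2f7* and *E2f8*, the 5 most and 3 least correlated genes (of which the first 1 or 2 are given), up to 4 called genes per list and direction by fold size, and markers beside a result. *Selenbp2*, *Cyp2b9* at 0 h, *Ugt2b1*, *Cyp2c38*, *Cyp2c39*, *Moxd1* and *Sult1e1* between pools were named after their values were seen. Some listed genes are counted but not reported here by name.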

Additional observations from a re-analysis of the deposited data

Results flagged for a closer look

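Within the 4 control mice at 0 h, 3 members had a mouse far from the others, judged by its gap to the next mouse over the range of the group (Dixon's critical value at 95%). For *Cyp2c40* it was replicate 2, at 8.95 CPM with the next mouse at 2.52 CPM, and for *Cyp2c69* the same mouse, at 3.01 CPM with the next at 0.677 CPM. For *Cyp2a4* it was replicate 4, at 8.80 CPM with the next at 0.885 CPM. Chance alone picks out about 1 in 20 groups, and 10 combinations of a member and a group of 4 mice were examined.

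For *Cyp2c40*, the control and LKO pools lay on opposite sides of the mean of their own 0 h mice. All 5 control pools were under the control mean, by -1.64 on average on the log2 scale, and all 5 LKO pools above the LKO mean, by 2.53. The fitted difference of the control pools was -2.02, and -1.27 without control replicate 2. The difference between the genotypes was not tested, because the gene was chosen for its level in these pools, so that this pattern is a description and largely set by the choice.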

How the results depend on the processing

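Of 131 alternative fold changes of members outside the samples that chose them, none was called and 9 turned sign. In HKO, DESeq2 called 331 genes, no filter 255 and the replicate block 263, and leaving out 1 mouse gave 54 to 297 (54 and 56 without AAV-Null replicates 1 and 2, 297 without HKO replicate 1). Same-numbered mice shared only a number (correlations of 0.198, -0.031 and 0.105 in HKO, -0.379 to 0.223 in LKO), and with the replicate block 0 genes were called in LKO at 0 h. There DESeq2 called 3 genes, and leaving out 1 mouse gave 0 to 1. Between pools, DESeq2 called 606 genes, no filter 337, library size scaling 42 (30 higher, 12 lower) and no time point block 0, with 0 members. Leaving out 1 time point gave 9 to 177 genes and 2 to 4 members, which were chosen on this contrast. Against 0 h, DESeq2 called 1817 genes in control and 385 in LKO livers (3 members), and leaving out 1 library gave 0 to 2001 and 0 to 236 genes and 0 to 1 and 0 to 2 members, whose pools were used in the choice. In LKO, library size scaling called 2 genes with 1 member, no filter 4 with 1.

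Some fold changes turned sign, none of them called. In HKO, *Cyp2c69* was 0.24 in a stranded column and -0.63 to 0.028 leaving out 1 mouse (above 0 without AAV-Null replicate 1), and summed with its paralogs it and *Cyp2c40* were 0.41. In LKO at 0 h, leaving out 1 mouse gave -0.84 to 0.60 for *Cyp2c40* (0.60 without control replicate 2, 0.13 without LKO replicate 1), -1.07 to 0.67 for *Cyp2c69* (0.67 without control replicate 2) and -0.16 to 3.39 for *Cyp2a4* (-0.16 without LKO replicate 4), which was -0.35 when summed with *Cyp2a5*. *Cyp2a4* in control pools ran from -0.69 to 2.63 (2.63 without control replicate 4, 0.055 without the 48 h pool). In LKO pools against 0 h, summing gave -0.13 for the Cyp2c group and -0.82 for *Cyp2a4*. A prior count of 0.5 moved the SD of *Cyp2a4* to 2.54 and of *A1bg* to 2.03. By Spearman correlation, 2, 1, 2, 3 and 0 of the 5 most similar genes were shared for *Cyp2c40*, *Cyp2c69*, *Cyp2a4*, *A1bg* and *Cux2*. The cause of these shifts was not tested. Reads of near-identical genes and 1 library per time point limit what the depth can show.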
